A study of Drosophila melanogaster with 9 samples.

Results

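The genes described here encode the nucleoporins, the proteins that build the nuclear pore complex. They were chosen by name: every gene whose current symbol begins with Nup and a digit, together with mbo, Mtor, Gp210, Ndc1, Elys, Aladin, Rae1 and Sec13, which gave 29 genes. Mtor is now called Mgtor. Of the 29 genes, 27 were measured by a probe set paired with 1 gene, out of 11982 genes in all. Gp210 and Nup58 had no such probe set and were not analysed here. Each measured member had exactly 1 probe set. The rule itself uses no expression value.

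Total RNA of Drosophila melanogaster was hybridised to 9 Affymetrix Drosophila_2 arrays, with 3 arrays for each of wild type, a mutant labelled OGA and a mutant labelled SXC. The sugar O-GlcNAc (N-acetylglucosamine on serine or threonine) is attached to proteins by the transferase that sxc encodes and taken off by the hydrolase that Oga encodes. The labels give no allele, strain, sex, age, stage or tissue for any group, and do not say whether replicates came from separate animals or cultures, so the spread between arrays may be technical. All levels and differences below are in the deposited log2 units.

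The nuclear pore complex is a ring of many copies of each nucleoporin set into the nuclear envelope, and all regulated traffic between nucleus and cytoplasm passes through it. An outer ring (the Y complex) and an inner ring form the scaffold, membrane proteins anchor it, and nucleoporins with repeated phenylalanine-glycine (FG) motifs fill the channel and bind transport receptors. Filaments extend into the cytoplasm and a basket into the nucleus. In mammals the FG nucleoporins are among the proteins that carry most O-GlcNAc. The arrays measured transcripts, not the sugar on the proteins.

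Both targeted genes were lower in the mutant named for them. Oga read 9.90 ± 0.22 in wild type and 8.84 ± 0.08 in the OGA mutant (SD, n = 3 each), and sxc read 11.84 ± 0.04 in wild type and 10.35 ± 0.02 in the SXC mutant. Array medians over all genes lay between 7.45 and 7.58. SXC mutant replicate 1 and OGA mutant replicate 3 lay farthest out on the first and second principal components. Marker genes were also read, because the labels name no tissue while the title of the series concerns oogenesis. All 9 measured eggshell and follicle cell genes lay below the median level of all genes (7.50) in every group, as did 5 of 8 female germline genes. The other 3 female germline genes had mean levels above it, and the list ran from 4.18 to 11.74. All 6 haemocyte genes (markers of blood cells) lay above that median, with mean levels from 9.29 to 13.66. The fat body, gut, neuron and male germline lists each had 1 gene above it, and the muscle list 0. The highest of these read 14.21 (fat body) and 11.81 (gut). The haemocyte genes moved both ways in the SXC mutant, with log2 differences from −0.37 to 0.39, and 1 of them fell (Ppn, −0.35, limma adjusted p = 0.0462; named after its values were seen). Of 51 measured marker genes over 8 cell type lists, 4 rose and 2 fell in the SXC mutant. That is 6 of 51, where 12.9% of all genes had a limma adjusted p under 0.05. The risers were nanos, bol, up and alphaTry, and elav fell with Ppn, all named after their values were seen. The mean haemocyte marker level was 11.19 to 11.24 on wild-type arrays, 11.23 to 11.33 on OGA mutant arrays and 11.11 to 11.24 on SXC mutant arrays. Whether any of these markers plays a part in the differences below was not tested. In such bulk RNA, fewer cells of a type and less RNA per cell cannot be told apart.

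Of the 27 nucleoporin transcripts, 26 had a mean level above the median of all genes, and Nup160 lay below it; no detection calls were used. Member means in wild type ran from 6.16 (Nup160) to 12.74 (Sec13). Levels of different probe sets are not compared further, because probe sets differ in how brightly they respond. The SD over the 3 wild-type arrays ran from 0.01 (Nup93-2) to 0.19 (Nup188). In the OGA mutant it reached 0.34 (Mgtor), and in the SXC mutant 0.18 (Nup153).

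In the SXC mutant, 2 of the 27 nucleoporin genes fell, none rose and 25 did not pass the test. The genes that fell were Nup35, of the inner ring, and Nup37, of the outer ring. Groups were compared with limma over all genes, and a gene was called where its Benjamini-Hochberg adjusted p over all genes was under 0.05. The called share of the members was 7.41%, against 12.9% of all genes tested in either direction and 7.84% called lower. At an unadjusted p under 0.05 the shares were 25.9% of members (7 genes) and 26.1% of all genes. Dim genes lower the shares over all genes. Among genes at or above the 25th percentile of mean level, 16.9% were called in either direction and 32.8% had an unadjusted p under 0.05 (limma). The members were thus called no more often than genes at large.

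Nup35 encodes an inner ring protein that links the scaffold to the pore membrane. It read 12.37, 12.34 and 12.47 on the wild-type arrays (replicates 1 to 3), 12.26, 12.37 and 12.55 on the OGA mutant arrays and 11.99, 12.07 and 12.03 on the SXC mutant arrays. All 3 SXC values lay below all 6 others, while wild type and the OGA mutant overlapped. The level in the SXC mutant was 0.37 lower than in wild type on the log2 scale (log2 difference −0.37, SE 0.08, 1.29-fold, limma adjusted p = 0.0119). It stayed called with any single array left out (limma adjusted p = 0.00556 to 0.0438). It was not called once the trend of change with gene length had been removed (log2 difference −0.25, adjusted p = 0.0577).

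Nup37 encodes a peripheral subunit of the outer ring. It read 10.67, 10.57 and 10.74 in wild type, 10.47, 10.60 and 10.76 in the OGA mutant and 10.18, 10.32 and 10.40 in the SXC mutant. Again the SXC arrays lay below all others, with no overlap. The log2 difference from wild type was −0.36 (SE 0.09, 1.29-fold, limma adjusted p = 0.0207). This call was less stable. It ended without wild type replicate 1 (limma adjusted p = 0.0753) or 3 (0.0716), without SXC mutant replicate 1 (0.0772) or 2 (0.0564), with unmoderated variances (0.0793) and after removal of the length trend (0.0795).

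**Figure D1:**
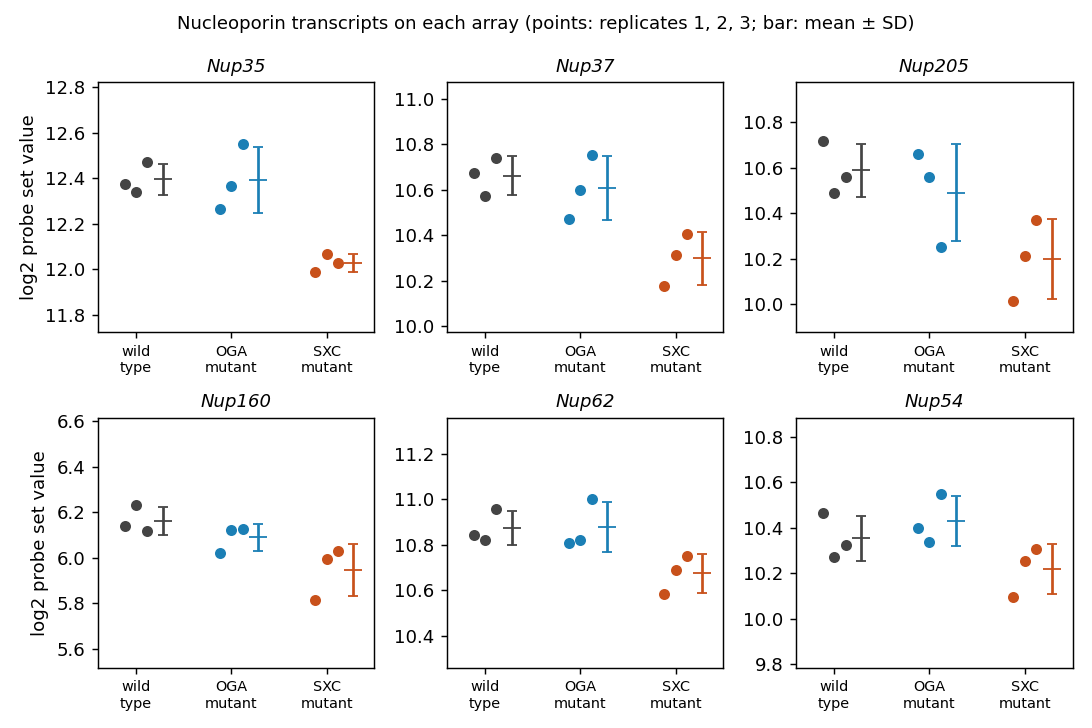
Levels of 6 nucleoporin transcripts on each array. The vertical axes are log2 probe set values, each panel spanning the same width; points are replicates 1 to 3 of wild type, the OGA mutant and the SXC mutant, and bars give the mean ± SD (n = 3). For Nup35 and Nup37 the SXC points lie below all other points; for Nup205 and Nup160 they lie below wild type, and OGA mutant replicate 3 comes down to 10.25 for Nup205.

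Just outside the threshold stood Nup205, a large scaffold protein of the inner ring. It read 10.72, 10.49 and 10.56 in wild type and 10.02, 10.21 and 10.37 in the SXC mutant, with no overlap. Its log2 difference of −0.39 (SE 0.12, limma adjusted p = 0.0508) was the largest in size among the 27 members. In the OGA mutant it read 10.66, 10.56 and 10.25, so that replicate 3 lay among the SXC values. Nup205 passed without OGA mutant replicate 1 (limma adjusted p = 0.0448) or 3 (0.0228), without SXC mutant replicate 3 (0.0345), without dim genes (0.0453), with an intensity trend and robust prior (0.0314), with array quality weights (0.0157), with only wild type and the SXC mutant in the fit (0.0354), and after removal of the length trend (log2 difference −0.45, 0.0182). In the other 12 of 20 alternatives it did not pass, with a limma adjusted p up to 0.190 (without wild type replicate 1).

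The outer ring had 10 measured members, of which 1 fell (Nup37) and 9 did not pass, with a median log2 difference of −0.09 in the SXC mutant. Nup160, a subunit of the Y complex, read 6.14, 6.23 and 6.12 in wild type and 5.81, 5.99 and 6.03 in the SXC mutant. These groups did not overlap (log2 difference −0.22, SE 0.07, limma adjusted p = 0.0771), and the gene passed with the length trend removed (adjusted p = 0.0467) and with array quality weights (0.0137). Elys, which brings the Y complex to chromatin when pores are assembled, differed by −0.23 (SE 0.10) and Nup133 by −0.17 (SE 0.07), and in both the lowest wild-type array lay at or below the highest SXC array (limma adjusted p = 0.191 and 0.174). Nup107, Nup75 (the Nup85 homologue) and Nup43 lay between −0.10 and −0.01. The gene for the precursor that is cut into Nup98, an FG nucleoporin, and Nup96, a Y complex subunit, differed by −0.08 (SE 0.09). Sec13 (0.03) and Nup44A (0.11), the Seh1 homologue, were the outer ring members with a positive difference. Both proteins also serve outside the pore, Sec13 in the COPII coat of secretory vesicles and both in a complex upstream of TOR signalling.

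All 6 inner ring genes had a negative log2 difference in the SXC mutant, with a median of −0.14, and 1 of them (Nup35) passed. Nup154, the homologue of Nup155, differed by −0.19 (SE 0.10) and Nup188 by −0.06 (SE 0.09), and neither passed (limma adjusted p = 0.266 and 0.742). The paralogues Nup93-1 and Nup93-2, whose proteins hold the FG channel to the ring, gave nearly equal values of −0.09 and −0.10.

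The FG proteins of the central channel were represented by Nup62 and Nup54, and neither passed in the SXC mutant. Nup62 read 10.84, 10.82 and 10.96 in wild type, 10.81, 10.82 and 11.00 in the OGA mutant and 10.58, 10.69 and 10.75 in the SXC mutant. The SXC values lay below all others, yet the log2 difference of −0.20 (SE 0.08) had a limma adjusted p of 0.116. Nup54 differed by −0.13 (SE 0.08, limma adjusted p = 0.357), and its SXC arrays overlapped wild type.

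None of the 4 measured genes of the cytoplasmic filaments passed. Rae1, an mRNA export factor that binds Nup98, read 11.91, 11.88 and 11.85 in wild type and 11.75, 11.74 and 11.70 in the SXC mutant. The SXC arrays lay below wild type without overlap, by 0.15 on average (log2 difference −0.15, SE 0.07, limma adjusted p = 0.193). Nup358, which binds Ran and acts in SUMO attachment, differed by −0.09 and Nup214 by −0.08. mbo, the fly Nup88 that partners Nup214 and restrains export, had a positive value of 0.10 (SE 0.07, limma adjusted p = 0.445).

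In the nuclear basket Nup50, a cofactor of import, was lower on all SXC arrays than on all wild-type arrays (log2 difference −0.16, SE 0.08, limma adjusted p = 0.253). Nup153 (−0.01) and Mgtor (0.03), the fly Tpr that forms the basket filaments, had differences smaller than their SE (0.09 and 0.14). The membrane protein Ndc1 differed by −0.08, and Aladin, which Ndc1 holds at the pore, by −0.09. Aladin arrays did not overlap between wild type and the SXC mutant (limma adjusted p = 0.403).

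**Figure D2:**
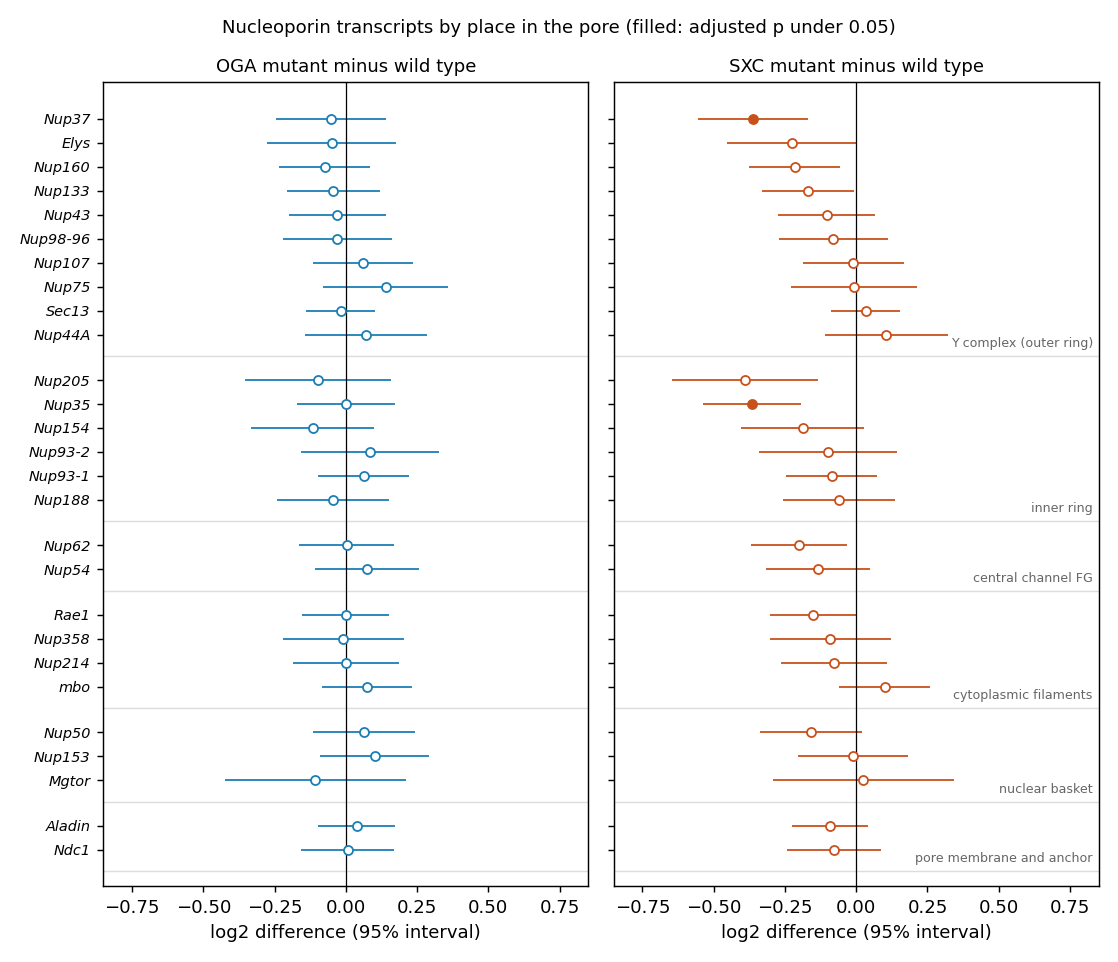
Log2 differences of the 27 nucleoporin transcripts from wild type in the OGA mutant (left) and the SXC mutant (right), ordered by place in the pore. Points are limma estimates, bars are 95% intervals, and filled points have an adjusted p under 0.05. The filled points are Nup37 and Nup35 in the SXC mutant; OGA values sit on both sides of 0.

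Small negative differences were common across the pore in the SXC mutant. The log2 difference was below 0 for 23 of 27 members (85.2%), against 51.8% of all genes tested. The median was −0.09 over the members and −0.01 over all genes. Arrays of the SXC mutant lay wholly below wild type for 8 members (29.6%), against 18.7% of all genes, and wholly above for 0 members, against 14% of all genes. Genes at or above the 25th percentile of mean level, a set that holds all 27 members, are the nearer comparison. Of these, 53.5% had a difference below 0, 22.9% lay wholly below wild type and 16.7% wholly above. The members that differed without overlap were Nup35, Nup37, Nup205, Nup160, Nup62, Nup50, Rae1 and Aladin.

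A shift of this kind also occurred between wild-type arrays. On wild type replicate 2, 25 of 27 members lay below the mean of the other 2 wild-type arrays, with a median difference of −0.08. On the SXC arrays 23, 25 and 17 members lay below the wild-type mean (replicates 1, 2 and 3), with medians of −0.14, −0.14 and −0.05. These medians have unlike references: a wild-type array was set against 2 arrays and an SXC array against 3, which enlarges the wild-type value. The mean over the members was therefore also set against the mean of all 3 wild-type arrays. By that measure wild type replicates 1 to 3 lay at 0.05, −0.06 and 0.02. SXC mutant replicates 1 to 3 lay at −0.16, −0.15 and −0.04. Without wild type replicate 2 the members' median was −0.14, and without SXC mutant replicate 3 it was −0.145. Without SXC mutant replicate 1, the array farthest out on the first component, it was −0.08, with 21 members below 0.

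**Figure D3:**
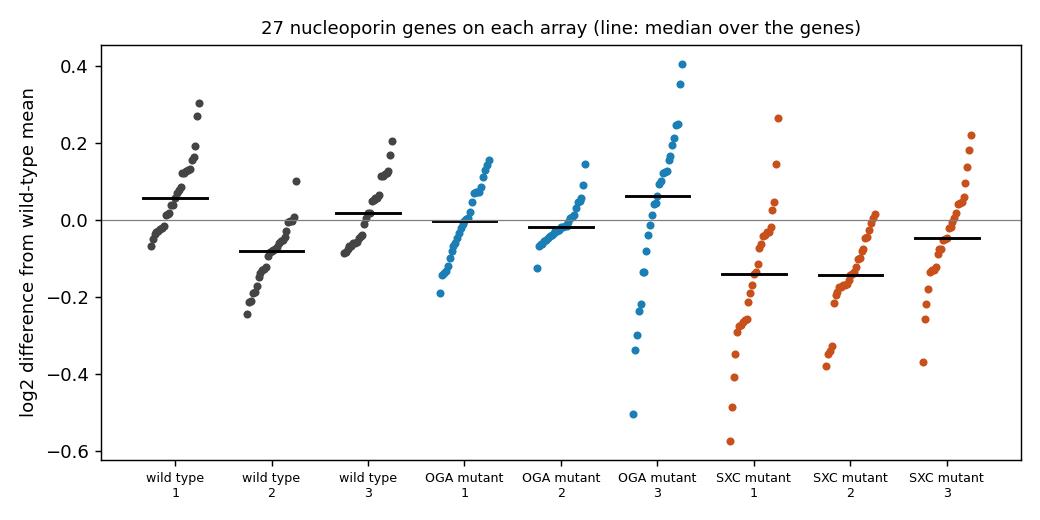
Difference of each of the 27 nucleoporin transcripts from the wild-type mean (log2) on each array; a wild-type array is set against the other 2. Points are genes in order of value and lines are medians. Medians of SXC mutant replicates 1 and 2 lie at −0.14, replicate 3 at −0.05 and wild type replicate 2 at −0.08; OGA mutant replicate 3 has the widest spread.

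In the OGA mutant 0 of 27 nucleoporin genes passed the limma test, and 0 had an unadjusted p under 0.05. Over all genes the called share was 0.00835% (Oga itself), and 3.91% of genes had an unadjusted p under 0.05. The log2 difference was negative for 14 members (50.3% of all genes were) and positive for 13, with a median of −0.00. No member had OGA arrays wholly above or below wild type, against 9.04% of all genes. The largest positive value was that of Nup75 (0.14, SE 0.10) and the largest negative value that of Nup154 (−0.12, SE 0.10). The 95% intervals of all members lay between −0.42 (lower bound of Mgtor) and 0.36 (upper bound of Nup75).

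The SD over arrays was largest in the OGA mutant for 17 of 27 members, in wild type for 5 and in the SXC mutant for 5, with median SDs of 0.12, 0.07 and 0.09. OGA mutant replicate 3 was the highest of all 9 arrays for 12 members and the lowest for 3. Mgtor read 10.65, 10.57 and 10.01 on OGA replicates 1 to 3, and Nup75 read 10.70, 10.70 and 11.10. The direction went with gene length: across the 27 members, the difference from wild type on replicate 3 had a correlation of −0.67 with log2 gene length, while on replicate 1 it was 0.68 and on replicate 2 0.28. These points share an array each, and the correlations are descriptions only. In the SXC mutant the corresponding values were 0.05, −0.19 and 0.46, and for the wild-type arrays, each set against the other 2, they were 0.41, −0.04 and −0.42.

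Gene length was followed because it moved with the mutant differences over the whole array. Across 7166 genes above the 40th percentile of level, the correlation of log2 length with the difference from wild type was 0.35 in the OGA mutant and 0.26 in the SXC mutant, so shorter genes tended to read lower. Over the 27 nucleoporin genes it was −0.31 in the OGA mutant and 0.13 in the SXC mutant. Nup35 (1308 bp) and Nup37 (1443 bp) are among the shorter members, as are Nup62 (1452 bp) and Rae1 (1238 bp), while Nup205 (7166 bp) and Nup160 (5559 bp) are long. With the length trend removed, the number of members called in the SXC mutant was again 2, but the calls were those of Nup160 and Nup205. The difference of Rae1 then shrank from −0.15 to −0.04 and that of Nup62 from −0.20 to −0.10. Members with a negative difference then numbered 21 of 27, and the median was −0.10 against 0.02 over all genes.

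**Figure D4:**
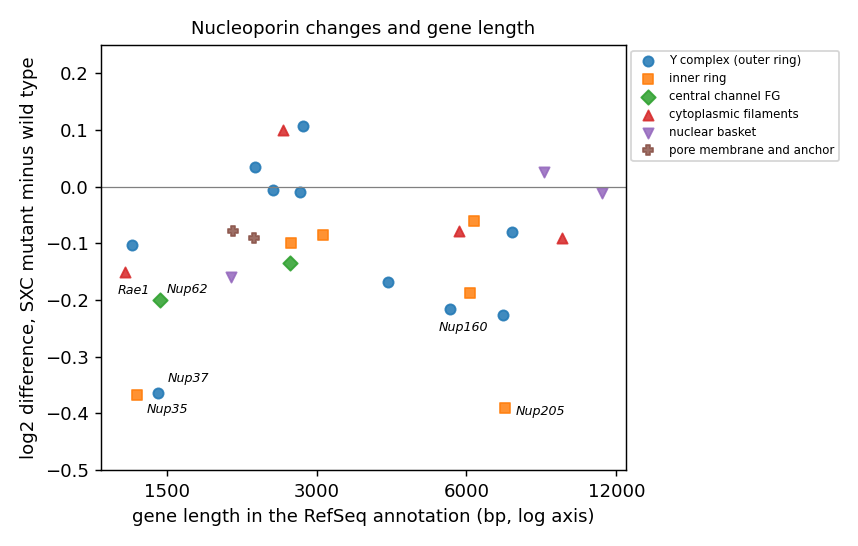
Log2 difference between the SXC mutant and wild type against gene length (bp, log axis) for the 27 nucleoporin genes, with symbols for the place in the pore. Nup35 and Nup37 combine differences of −0.37 and −0.36 with lengths of 1308 and 1443 bp, and Nup205 has the lowest value, −0.39, at 7166 bp.

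Set directly against each other, the mutants differed in the same members. Nup35 was 0.37 higher in the OGA mutant than in the SXC mutant (SE 0.08, limma adjusted p = 0.0135) and Nup37 was 0.31 higher (SE 0.09, adjusted p = 0.0428). These were 2 of 27 members (7.41%), against 7.79% of all genes called higher and 11.8% called in either direction. The comparison shares the SXC arrays with the preceding one, so it is no separate support. OGA arrays lay wholly above SXC arrays for 7 members (25.9%), against 18.5% of all genes. Among genes at or above the 25th percentile of mean level the share was 23.0%. The 7 members were Nup35, Nup37, Nup62, Nup54, Nup50, Rae1 and Aladin. Nup205, not called here, passed with array quality weights (limma adjusted p = 0.0453) and without OGA mutant replicate 3 (0.0475). The Nup35 call ended with unmoderated variances (adjusted p = 0.0603). The Nup37 call ended without any 1 of the 3 wild-type arrays (limma adjusted p = 0.0505 to 0.0593), without OGA mutant replicate 2 (0.0917) or 3 (0.139), without SXC mutant replicate 1 (0.148) or 2 (0.0980), with quantile normalization (0.0692) or median centring (0.0672), with unmoderated variances (0.123), with only the mutants in the fit (0.0767) and after removal of the length trend (0.115).

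The proteins that use or surround the pore were read from 6 lists: importins, exportins, the Ran cycle, mRNA export, the nuclear lamina with the LINC complex, and the SUMO cycle. Of 58 listed genes 50 were measured, and in the SXC mutant 3 rose, 2 fell and 45 did not pass. That is 10% called, against 12.9% of all genes, with a median log2 difference of −0.10 against −0.01.

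Importins, which carry cargo inwards, included the 2 risers among receptors. msk (moleskin, importin-7) had a log2 difference of 0.31 (SE 0.07, 1.24-fold, limma adjusted p = 0.0125) and Tnpo (transportin) one of 0.33 (SE 0.09, 1.26-fold, adjusted p = 0.0361). The other 8 measured importins did not pass. The called share was 20% of 10 measured importins, against 12.9% of all genes and 16.9% of genes at or above the 25th percentile of mean level. The list went both ways, with 6 positive and 4 negative values and a median of 0.10. Just outside the threshold, and with SXC arrays wholly below wild type, were Pen (an importin alpha; −0.34, SE 0.11, limma adjusted p = 0.0583) and Fs(2)Ket (importin beta; −0.23, SE 0.07, adjusted p = 0.0509), which were named after their values were seen. The calls of msk and Tnpo each ended with at least 1 array left out. The call of msk ended without wild type replicate 1 (limma adjusted p = 0.0609). That of Tnpo ended without wild type replicate 1 (0.109), 2 (0.0850) or 3 (0.0901), without SXC mutant replicate 1 (0.124), 2 (0.0621) or 3 (0.0610), with median centring (0.0520), with unmoderated variances (0.112) and after removal of the length trend (0.0640).

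In mRNA export 1 of 15 measured genes rose and 2 fell. That is 20% called, against 12.9% of all genes and 16.9% of genes at or above the 25th percentile of mean level. Dbp80, a DEAD-box helicase that acts at the cytoplasmic face of the pore in other species, had a log2 difference of 0.36 (SE 0.08, 1.29-fold, limma adjusted p = 0.0169). e(y)2, a small subunit shared by the SAGA coactivator and the export complex at the pore, differed by −0.40 (SE 0.06, 1.32-fold, adjusted p = 0.00314). PCID2, of the same export complex, differed by −0.21 (SE 0.06, adjusted p = 0.0417). The call of e(y)2 held with every single array left out. The call of Dbp80 ended without wild type replicate 1 (limma adjusted p = 0.0735) or 3 (0.0591), without SXC mutant replicate 1 (0.0619), with unmoderated variances (0.0661) and after removal of the length trend (0.0582). That of PCID2 ended without any 1 of the wild-type or SXC arrays (0.0707 to 0.145), without OGA mutant replicate 2 (0.0510), after removal of the length trend (0.291), and with quantile normalization, median centring or a replicate block (0.0650, 0.0924 and 0.0796).

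None of the 5 exportins, 6 Ran cycle genes, 8 lamina and LINC genes or 6 SUMO cycle genes measured passed in the SXC mutant. The smallest p of the exportins belonged to Cse1, which recycles importin alpha (0.14, SE 0.06). In the Ran cycle it belonged to Ntf-2, which returns Ran to the nucleus (−0.14, SE 0.06). In the lamina and LINC list it belonged to bocks (0.27, SE 0.09), and in the SUMO cycle to Sumo (−0.17, SE 0.05). The limma adjusted p-values of these genes ran from 0.0607 to 0.166. The 6 SUMO cycle genes had negative values, with a median of −0.16, where 51.8% of all genes were negative. In the OGA mutant 0 of the 50 genes passed, and 2 (4%) had an unadjusted p under 0.05 (limma). Over all genes these shares were 0.00835% and 3.91%. Between the mutants 5 of the 50 genes passed: Tnpo (−0.31), Dbp80 (−0.47) and bocks were lower in the OGA mutant, and e(y)2 (0.35) and Msp300 higher. That is 10% called, against 11.8% of all genes. The calls of Dbp80 and e(y)2 held in all 20 alternatives. The call of Tnpo (limma adjusted p = 0.0474) ended without any 1 of the wild-type arrays (0.0638 to 0.0727) or SXC arrays (0.0696 to 0.161), without OGA mutant replicate 2 (0.0679) or 3 (0.125), with median centring (0.0554), unmoderated variances (0.135), array quality weights (0.0553), only the mutants in the fit (0.0990) or the most variable probe set (0.0505). In the lamina and LINC list bocks was lower (−0.37, limma adjusted p = 0.0235) and Msp300, a nesprin of the LINC complex, higher (0.74, adjusted p = 0.0303) in the OGA mutant than in the SXC mutant. The call of bocks ended without OGA mutant replicate 3 (limma adjusted p = 0.0810) or SXC mutant replicate 1 (0.0803), and that of Msp300 without SXC mutant replicate 1 (0.104) or 2 (0.0819). Both ended with unmoderated variances (0.0936 and 0.152) and with only the 2 groups in the fit (0.0565 and 0.0670). Without OGA mutant replicate 3 the difference of Msp300 was 0.44 (limma adjusted p = 0.0198). The probe sets of Msp300 disagreed: averaged over them the difference was 0.06 (adjusted p = 0.556).

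**Figure D5:**
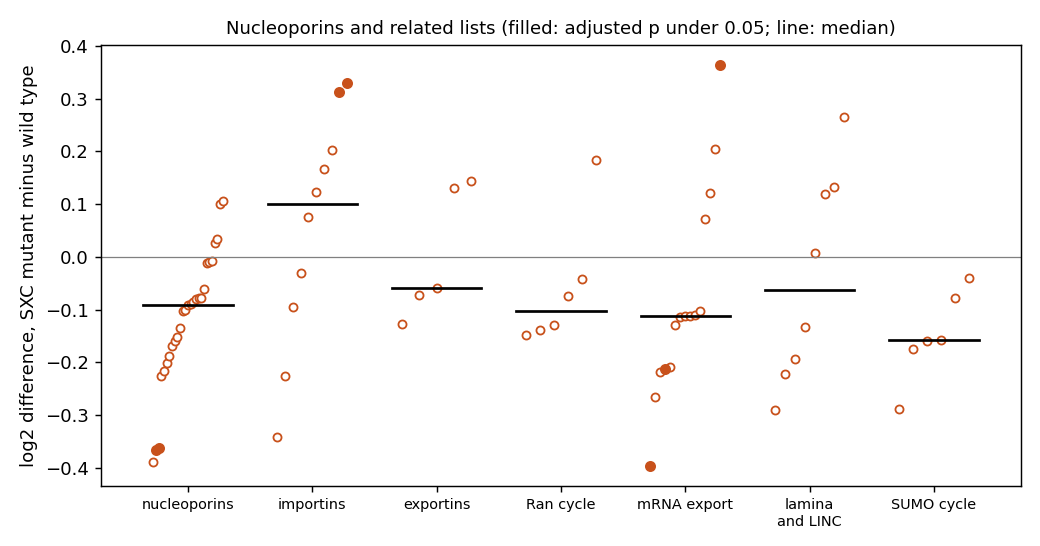
Log2 differences between the SXC mutant and wild type for the nucleoporins and 6 lists of related genes. Each point is a gene, filled where its adjusted p is under 0.05, and lines are medians. The nucleoporin median is −0.09 and the importin median 0.10, with importins on both sides of 0.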

How the data were processed

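Affymetrix Drosophila_2 arrays of wild type, the OGA mutant and the SXC mutant (3 each, grouped by the titles of the samples) were analysed. The authors' deposited values are on a log2 scale, read from the values themselves, with 18952 probe sets per array. Per the submitters' processing notes the tools were MAS5, RMA and Partek, whose roles are not stated; the background correction, centring and genome build are not given in the sources used here.

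Control probe sets (183) were left out. A platform table paired 13647 probe sets with 1 gene, 402 with several and 4720 with none listed; symbols were updated by Entrez identifier to RefSeq (assembly Release 6 plus ISO1 MT), which also gave gene lengths. The probe set with the highest mean represented each of 11982 genes. No sequences are printed.

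The comparisons used limma 3.58.1 under R 4.3.3 (group means over all 9 arrays, lmFit and eBayes; 6 residual and 5.17 prior degrees of freedom), with Benjamini-Hochberg adjustment over all genes and calls under 0.05. The fit was tested on simulated data. The number of arrays limits the precision. As a set the members are described by signs, sizes, medians and counts, and no set test was run.

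All members could be named. Of each related list up to 4 called genes with the smallest p were named, or else the 1 with the smallest p. The members follow a rule on gene names, and that rule and the lists were written with earlier results of these data known. The alternatives tried were median centring, quantile normalization, a filter on genes below the 25th percentile of mean level, a robust prior with an intensity trend, unmoderated variances, array quality weights, a replicate block, only the 2 groups compared, leaving out each array, the most variable or mean probe set, and removal of a loess trend with log2 gene length (fitted above the 40th percentile of level, span 0.75). The deviations of same-numbered arrays from their group means had correlations of −0.22 to 0.29. The highest was between replicate 2 of wild type and of the OGA mutant. Different-numbered arrays were not compared, so these values cannot decide whether the numbers pair the arrays. Replicate numbers were not taken as pairs in the main fit.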

Additional observations from a re-analysis of the deposited data

How the results depend on the processing

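The number of nucleoporin genes called in the OGA mutant against wild type was 0 in all 20 alternatives (limma; with unmoderated variances an ordinary linear model). In the SXC mutant against wild type it was 2 in the main analysis, 1 with unmoderated variances, 5 with array quality weights (Nup160, Nup205 and Rae1 in addition) and 1 to 3 with an array left out. Between the mutants it was 2 in the main analysis, 1 with quantile normalization, 1 with median centring, 1 with only the 2 groups compared, 1 with the length trend removed, 0 with unmoderated variances, 3 with array quality weights (Nup205 in addition) and 1 to 2 with an array left out. Of the 50 genes in the related lists, 5 were called in the SXC mutant in the main analysis, 3 with median centring, 8 without dim genes, 9 with an intensity trend and robust prior, 12 with array quality weights and 1 to 8 with an array left out. The cause of these moves was not tested. No called member turned its direction in any alternative. With a replicate block the SXC comparison again called 2 members, Nup35 (limma adjusted p = 0.0159) and Nup37 (0.0157). The mutants then differed in 2, and 4 related genes were called. Whether the replicate numbers pair the arrays is not known (correlations of deviations between same-numbered arrays were −0.22 to 0.29). The share of all genes called in the SXC mutant ranged from 5.54% without wild type replicate 1 to 23.6% with array quality weights. The choice of probe set could not move the members' own values, since each had 1. Where an array was left out, the pair left in its group was assumed to vary like the other groups. With no detection calls, signal over background could not be read for any probe set.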
